A study of Mus musculus with 8 samples.

Results

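Signal on array probes for 9 genes, *Sftpd*, *Gdf3*, *Dnah8*, *Lrrc55*, *Tmem40*, *Krtap13-1*, *Esr1*, *Lonrf3* and *Srbd1*, was much higher in islets of mice lacking cannabinoid receptor 1 (CB1R) in beta cells than in islets of their littermates. The 9 genes were chosen for the size of that difference on these same arrays, so that its size and direction are given as a description. Calls of the limma fit on their probes are listed, but nothing is read from them. The 9 genes are among the 16959 that had at least 1 probe bright enough to be compared. All 18 probes whose transcript accession maps to these genes were examined, and 16 of them could be compared. The choice had no fixed limit: *Srbd1*, the smallest of the 9, was 45th of all compared genes by fitted increase, and 36 other genes had a fitted increase at least as large, 18 of them past the threshold of limma.

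Islets are the endocrine cell clusters of the pancreas, and were hand-picked after collagenase digestion from male C57BL/6 mice on a standard diet. The β-CB1R-/- group (CB1 KO in the labels, 3 mice) was *Cnr1* flox/flox with the MIP-Cre/ERT transgene, and the β-CB1R+/+ group (CB1 WT, 4 mice) was *Cnr1* flox/flox without it. Both had received tamoxifen, and the sources used here do not tie an age to the array islets; islets for the study's functional assays were taken a month after tamoxifen. Total RNA was measured on 8 Agilent arrays with 1 colour, of which 2 were repeat arrays of β-CB1R-/- replicate 2 and were averaged. In this model the mouse insulin promoter drives a Cre recombinase fused to the ligand-binding part of an oestrogen receptor, which tamoxifen activates. Each β-CB1R-/- mouse carried the transgene and no β-CB1R+/+ mouse did, so that effects of the transgene and of the deletion cannot be told apart. The labels' growth protocol speaks of global CB1 receptor knockout mice, whereas the study's design names the beta cell-specific line, which is followed here.

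CB1R is a receptor coupled to inhibitory G proteins, encoded by *Cnr1*. The 9 genes encode proteins of several kinds. There are secreted proteins (*Sftpd*, *Gdf3*), an ion channel subunit (*Lrrc55*), a membrane protein (*Tmem40*) and a nuclear receptor (*Esr1*). Others are proteins of the cilium and the hair shaft (*Dnah8*, *Krtap13-1*) and intracellular proteins named for their domains (*Lonrf3*, *Srbd1*). Whether the 9 genes share a pathway or response was not tested. Several are best known from tissues other than the islet, such as *Sftpd* from lung, *Dnah8* from testis and *Krtap13-1* from hair follicles.

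Levels are given as log2 intensity relative to the 75th percentile of the array, so that a level of 0 is the 75th percentile itself and each unit is a doubling. Between 33304 and 39988 probes per array were well above background in the scanner software. *Cnr1* averaged −0.60 ± 0.46 (SD, n = 4) in β-CB1R+/+ and −2.57 ± 0.49 (SD, n = 3) in β-CB1R-/- islets, with a difference of −1.97 ± 0.33 (SE) and an adjusted p of 0.193 in limma. *Ins1*, *Gcg*, *Sst* and *Ppy*, the hormones of the 4 main islet cell types, and *Cpa1*, an enzyme of acinar cells, were well above background on every array, with levels from 6.41 to 11.23. The arrays shared 1 slide, with each genotype on its own side, so that genotype cannot be told apart from place on the slide. The median difference of the 39165 compared probes was −0.02.

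For the 9 genes, the median difference of the leading probe, which is the probe of a gene with the highest mean intensity, was 4.66. It ranged from 2.38 for *Srbd1* to 5.63 for *Gdf3* in 8 genes. Of these, *Lrrc55*, which gives the median, and *Esr1* were well above background on 2 of the 4 β-CB1R+/+ arrays, and *Tmem40* on 3. The sizes for these genes thus rest partly on values at background. For *Krtap13-1*, whose β-CB1R+/+ arrays were all at background, the fitted value of 5.68 has no exact size. Its lower bound is 3.40 with the main background treatment, and with this bound the median is 3.80. With normexp, another background correction, the median was 2.82 and the difference of *Krtap13-1* was 2.49, below that bound. All 16 compared probes were higher in every β-CB1R-/- mouse than in any β-CB1R+/+ mouse, which held for 2.16% of all compared probes. Of the 16 probes, 12 passed the threshold of an adjusted p of 0.05 as higher, beside 0.107% of all compared probes. All 9 leading probes passed it, beside 0.171% of the leading probes of all genes in either direction, and 0 to 9 of them passed it under the alternatives, with 0 without β-CB1R-/- replicate 2. These counts follow from how the genes were chosen and nothing is read from them. On the leading probes, the gap between the lowest β-CB1R-/- and the highest β-CB1R+/+ mouse was 1.59 to 4.49. Whole islets were measured, so that more cells expressing a gene and more RNA per cell cannot be told apart.

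**Figure D1:**
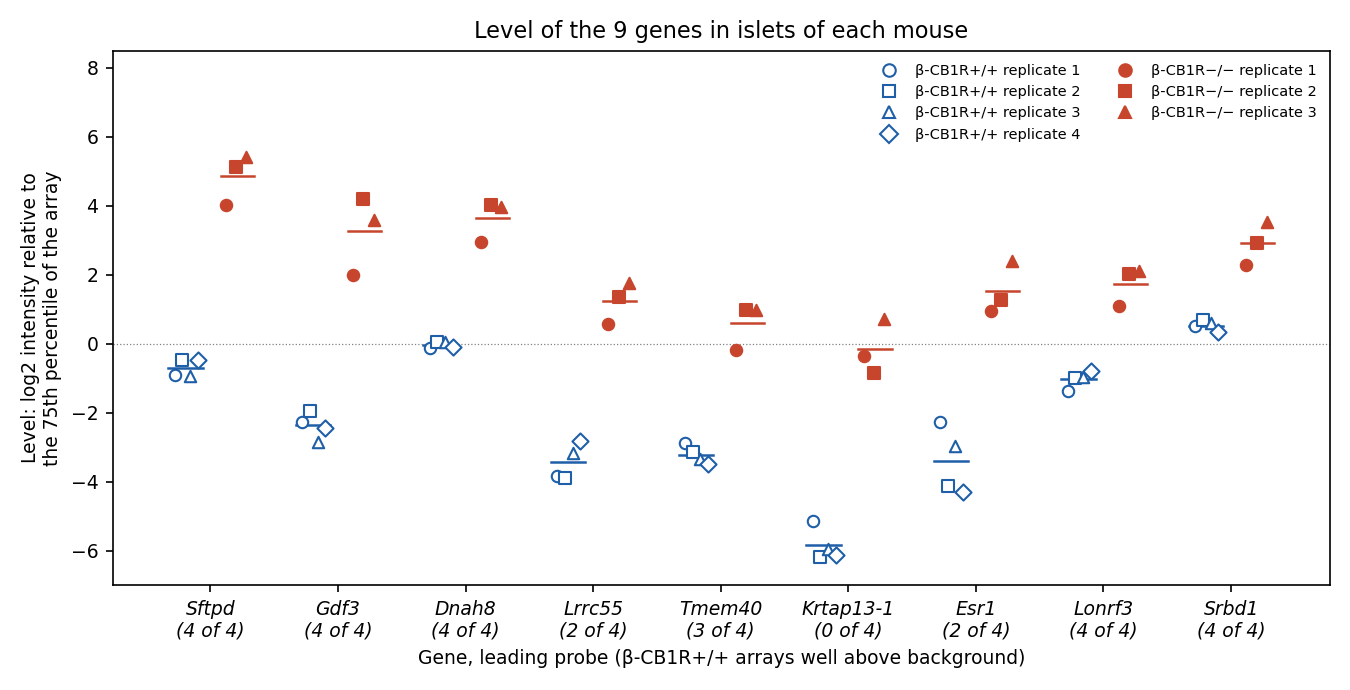
Level of the leading probe of each gene (vertical axis, log2 intensity relative to the 75th percentile of the array) in each mouse, with open blue symbols for the 4 β-CB1R+/+ mice, filled red symbols for the 3 β-CB1R-/- mice and a line at each group mean. The groups do not overlap for any of the 9 genes, and β-CB1R-/- replicate 1 (circle) is the lowest of its group for 8 of them; the number under each name is how many of the 4 β-CB1R+/+ arrays were well above background.

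For 4 genes, the leading probe was well above background on all 4 β-CB1R-/- arrays but not on all 4 β-CB1R+/+ arrays: *Lrrc55*, *Tmem40*, *Krtap13-1* and *Esr1*. The 250 bases before a transcription start of these 4 genes are shown because they were the ones at or near background in part or all of the β-CB1R+/+ mice. The sequences are from RefSeq on GRCm38.p6 and read 5′ to 3′ on the gene's strand: chr2:85198751-85199000 on the minus strand for *Lrrc55*, chr6:115762467-115762716 on the minus strand for *Tmem40*, chr16:88728612-88728861 on the plus strand for *Krtap13-1* and chr10:4611739-4611988 on the plus strand for *Esr1*. Capitals mark the motifs that were found in them.
Lrrc55: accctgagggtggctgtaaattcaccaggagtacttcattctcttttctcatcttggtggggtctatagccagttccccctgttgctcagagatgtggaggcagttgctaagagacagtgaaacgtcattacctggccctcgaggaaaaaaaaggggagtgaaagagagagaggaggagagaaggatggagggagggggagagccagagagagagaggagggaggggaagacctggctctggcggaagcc
Tmem40: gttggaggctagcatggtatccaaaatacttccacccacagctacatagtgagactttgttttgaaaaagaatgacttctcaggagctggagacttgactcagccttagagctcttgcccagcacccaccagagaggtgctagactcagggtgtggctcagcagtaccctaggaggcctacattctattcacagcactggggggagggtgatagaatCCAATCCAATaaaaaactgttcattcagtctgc
Krtap13-1: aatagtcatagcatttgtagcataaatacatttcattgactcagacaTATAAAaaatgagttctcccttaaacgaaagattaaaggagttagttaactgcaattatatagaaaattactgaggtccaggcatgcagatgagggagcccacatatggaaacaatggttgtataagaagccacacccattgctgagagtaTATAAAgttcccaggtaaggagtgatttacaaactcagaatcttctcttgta
Esr1: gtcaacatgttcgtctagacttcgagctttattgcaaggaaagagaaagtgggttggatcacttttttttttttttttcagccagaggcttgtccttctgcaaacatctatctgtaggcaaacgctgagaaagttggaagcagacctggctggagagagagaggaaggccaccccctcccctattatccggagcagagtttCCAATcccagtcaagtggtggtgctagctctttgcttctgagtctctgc

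Windows were available for 6 of the 9 genes, with 8 windows among 32851 for all genes. The searched motifs were the TATA box (TATAAA), the CCAAT box (CCAAT), the GC box (GGGCGG), the cAMP response element (TGACGTCA), the gamma-activated site bound by STAT proteins (TTCNNNGAA) and the oestrogen response element (GGTCA and TGACC with 3 bases between), on both strands. None of the 6 motifs overlapped another in these windows. *Krtap13-1* had TATAAA 203 and 52 bases before the start, *Lonrf3* had it 32 bases before, and 12.4% of all windows held it. CCAAT was in 4 of the 8 windows, both of *Tmem40*, 1 of *Esr1* and that of *Lonrf3*, and in 33.8% of all windows. In the *Tmem40* window shown, CCAAT stands in tandem, 33 and 28 bases before the start. GGGCGG was in 2 windows, the other window of *Tmem40* and that of *Dnah8*, and in 32.7% of all windows. TTCNNNGAA was in 1 window, 188 bases before a second start of *Esr1*, and in 7.02% of all. TGACGTCA, held by 1.55% of all windows, and the oestrogen response element, held by 0.0639%, were in none of the 8. The 8 windows thus had no motif in common, and that of *Lrrc55* held none of the 6. These matches describe the letters of the windows and were not tested for binding.

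*Sftpd* encodes surfactant protein D, a secreted collectin that binds sugars on microbes and is best known from the lining of lung alveoli. The level of its leading probe (A_55_P2007601) was −0.90, −0.47, −0.94 and −0.47 in the β-CB1R+/+ mice and 4.02, 5.13 and 5.42 in the β-CB1R-/- mice. No β-CB1R+/+ mouse came within 4.49 of the lowest β-CB1R-/- mouse. The group means were −0.69 ± 0.26 (SD, n = 4) and 4.86 ± 0.74 (SD, n = 3), a difference of 5.55 ± 0.35 (SE), or 46.9-fold, and every array was well above background. With normexp the difference was 5.08. A further probe of *Sftpd* gave a difference of 4.44 ± 0.30, or 3.58 with normexp, with levels of −1.78 to −1.30 against 2.2 to 3.35. Both probes thus placed β-CB1R-/- replicate 1 lowest and replicate 3 highest.

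Differences of the other surfactant and collectin genes were smaller than that of *Sftpd*, a gene chosen for the size of its difference. Of 14 such genes, 11 were compared and none passed the threshold in limma, with 5 higher, 6 lower and 2 at an unadjusted p under 0.05, beside 3.9% of the leading probes of all genes. Their median difference was −0.14, beside −0.04 over all compared genes. *Sftpb* and *Sftpc*, the hydrophobic surfactant proteins, had differences of −0.67 ± 0.28 and −0.31 ± 0.55. *Sftpa1*, a related collectin that lies near *Sftpd* on its chromosome, had a difference of −0.43 ± 0.33. The adjusted p of these 3 genes was 0.999 in limma. Each was well above background on only 2 of the 4 β-CB1R-/- arrays, so that their values lie partly at background.

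*Gdf3* encodes a secreted ligand of the TGF-β superfamily, which signals through activin and nodal receptors and is best known from pluripotent cells and the early embryo. Its leading probe (A_66_P107818) was at −2.25, −1.94, −2.83 and −2.43 in β-CB1R+/+ and at 1.99, 4.22 and 3.61 in β-CB1R-/- islets. Replicate 1 was the lowest β-CB1R-/- mouse, and lay 3.93 above the highest β-CB1R+/+ mouse. The difference was 5.63 ± 0.50 (SE), from −2.36 ± 0.37 (SD, n = 4) to 3.27 ± 1.15 (SD, n = 3), or 49.7-fold, and 4.47 with normexp. The 2 probes of *Gdf3* disagreed in size. The other probe was at −1.03 to −0.62 in β-CB1R+/+ and at 0.18, 1.48 and 0.80 in β-CB1R-/- islets, a difference of 1.68 ± 0.31 that did not pass the threshold. Both had the same transcript accession and were well above background on all 8 arrays, and both had the order replicate 1, 3, 2 among β-CB1R-/- mice.

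Of 23 genes of the activin, nodal and GDF branch of TGF-β signalling, 19 were compared and none passed the threshold in limma, with 11 higher, 8 lower and 2 at an unadjusted p under 0.05. The median difference was 0.16. The 2 largest differences were of opposite sign. *Acvr1c*, which encodes the nodal and GDF receptor ALK7, was at −0.08, 0.10, 0.59 and 0.15 in β-CB1R+/+ and at 1.21, 1.14 and 1.42 in β-CB1R-/- islets, a difference of 1.07 ± 0.22 (adjusted p = 0.425 in limma). *Inhba*, which encodes the βA subunit of activin, was at −2.61 to −2.13 in β-CB1R+/+ and at −4.14 to −3.14 in β-CB1R-/- islets, a difference of −1.19 ± 0.27 (adjusted p = 0.660). It was well above background on only 2 of the 4 β-CB1R-/- arrays, so that its lower values lie partly at background. *Nodal*, a ligand, had a difference of −0.29 ± 0.32, its co-receptor gene *Tdgf1* one of 0.37 ± 0.29 and the signal transducer *Smad2* one of −0.17 ± 0.23. Among 11 pluripotency genes, 9 were compared and none passed the threshold, with 3 higher, 6 lower, 0 at an unadjusted p under 0.05 and a median of −0.10. *Nanog*, a core factor of pluripotent cells, had a difference of −0.16 ± 0.19, and the largest was 1.16 ± 0.81 for *Tdh*, a threonine dehydrogenase.

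*Lrrc55* encodes an auxiliary subunit of the BK channel, the potassium channel opened by calcium and voltage. Its single probe (A_52_P395280) was at −3.83, −3.90, −3.15 and −2.83 in β-CB1R+/+ and at 0.58, 1.36 and 1.77 in β-CB1R-/- islets. It was well above background on 2 of the 4 β-CB1R+/+ arrays and on all 4 β-CB1R-/- arrays. The difference was 4.66 ± 0.37 (SE), from −3.42 ± 0.52 (SD, n = 4) to 1.24 ± 0.60 (SD, n = 3), and 2.82 with normexp. No further probe was matched to *Lrrc55*, so that agreement between probes could not be examined. Of 7 BK channel genes, 5 were compared and none passed the threshold, with 2 higher, 3 lower and 0 at an unadjusted p under 0.05, and a median of −0.07. *Kcnma1*, the pore-forming subunit, had a difference of −0.27 ± 0.32, the related auxiliary subunit *Lrrc38* had the largest, 0.59 ± 0.63, and *Lrrc52*, also an auxiliary subunit, was not well above background in enough mice to be compared.

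*Tmem40* encodes a transmembrane protein whose function is little described. The leading probe (A_55_P2034300) was at −2.88, −3.12, −3.33 and −3.50 in β-CB1R+/+ and at −0.17, 0.99 and 0.98 in β-CB1R-/- islets, and was well above background on 3 of the 4 β-CB1R+/+ arrays. Replicates 2 and 3 of the β-CB1R-/- group were alike, and replicate 1 lay below them. The difference was 3.80 ± 0.33 (SE), from −3.21 ± 0.27 (SD, n = 4) to 0.60 ± 0.67 (SD, n = 3). The other probe gave 3.86 ± 0.53, within 0.06 of the leading probe, but did not pass the threshold, and β-CB1R+/+ replicate 1 stood apart on it at −4.82. With normexp the differences were 2.23 and 2.03.

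*Esr1* encodes oestrogen receptor α, a nuclear receptor that activates genes when oestradiol binds it. Its leading probe (A_55_P2030883) was at −2.27, −4.11, −2.96 and −4.30 in β-CB1R+/+ and at 0.96, 1.27 and 2.40 in β-CB1R-/- islets. The β-CB1R+/+ mice spanned 2.03, the widest range among the 9 leading probes, and 2 of their 4 arrays were well above background. The difference was 4.95 ± 0.56 (SE), from −3.41 ± 0.96 (SD, n = 4) to 1.54 ± 0.76 (SD, n = 3), and 3.22 with normexp.

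The 3 probes of *Esr1* did not show the same picture. One other probe was at −6.03 to −3.84 in β-CB1R+/+ and at −3.12, −4.70 and −4.94 in β-CB1R-/- islets, and was well above background on only 1 of the 8 arrays. The remaining probe, spotted 10 times on each array, was at −5.90 to −4.99 and at −5.66, −4.52 and −3.95, and was well above background on none. On both, the groups overlapped and no comparison was made. RefSeq lists 12 transcripts of *Esr1*, and where the 3 probes lie in them was not determined here. The Cre/ERT transgene also encodes part of an oestrogen receptor. Whether the bright probe can bind RNA of the transgene was not determined here, so that transgene RNA and RNA of the *Esr1* gene cannot be told apart by these data.

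Of 25 oestrogen receptor genes, cofactors and targets, 19 were compared and none passed the threshold in limma, with 10 higher, 9 lower and 1 at an unadjusted p under 0.05. The median difference was 0.07. *Esr2*, the other nuclear oestrogen receptor, was at 2.64 ± 0.11 (SD, n = 4) and 2.79 ± 0.49 (SD, n = 3), a difference of 0.15 ± 0.25. *Greb1*, a target of oestrogen receptor α, had a difference of −0.01 ± 0.43, and *Pgr*, the progesterone receptor and another target, was too dim to be compared. The largest difference was −0.71 ± 0.21 for *Ccnd1*, which encodes cyclin D1 (adjusted p = 0.999).

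*Dnah8* encodes a heavy chain of axonemal dynein, the motor that moves cilia and sperm flagella. Its leading probe (A_55_P2025675) was at −0.11, 0.06, 0.04 and −0.09 in β-CB1R+/+ and at 2.94, 4.03 and 3.97 in β-CB1R-/- islets. The β-CB1R+/+ mice lay within 0.18 of each other, the narrowest range among the 9 leading probes. The difference was 3.67 ± 0.29 (SE), from −0.03 ± 0.09 (SD, n = 4) to 3.65 ± 0.61 (SD, n = 3), or 12.8-fold, with every array well above background. The 3 probes of *Dnah8* differed in size. The second had a difference of 2.13 ± 0.25, and 1.11 with normexp. The third, at −3.36 to −2.93 against −2.91 to −2.48, had one of 0.32 ± 0.21 that did not pass the threshold, and 0.02 with normexp.

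Of 27 genes of axonemal dyneins and motile cilia, 14 were compared, 5 were too dim and 8 had no matched probe. None passed the threshold in limma, with 4 higher, 10 lower and 3 at an unadjusted p under 0.05, and the median was −0.24. Their summed intensity, in multiples of the 75th percentile, was 5.18 to 7.05 in β-CB1R+/+ and 4.42 to 4.94 in β-CB1R-/- mice. *Dnah7a*, another dynein heavy chain, was well above background on 3 β-CB1R+/+ arrays but on 0 β-CB1R-/- arrays; its level there was lower by at least 1.35-fold (adjusted p = 0.966 in limma). Among the genes measured in both groups, the largest difference was −0.80 ± 0.19 for *Dnah11*, also a heavy chain (adjusted p = 0.777). *Foxj1*, the main transcription factor of motile cilia, had a difference of −0.33 ± 0.36, and the heavy chains *Dnah5* and *Dnah9* were too dim to be compared.

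*Krtap13-1* encodes a keratin-associated protein, which embeds the keratin filaments of the hair shaft. Its single probe (A_51_P135118) was at −5.13, −6.19, −5.94 and −6.11 in β-CB1R+/+ islets, where it was well above background on 0 of 4 arrays. In β-CB1R-/- islets it was at −0.36, −0.85 and 0.73 and well above background on all 4. The probe passed the brightness filter through the β-CB1R-/- mice alone and had to differ between the groups. Each β-CB1R+/+ array was therefore set to the dimmest signal that counted as well above background there. This gave a level at least 10.6-fold higher in β-CB1R-/- islets, a bound that holds for the main background treatment only. The measured means were −5.84 ± 0.49 (SD, n = 4) and −0.16 ± 0.80 (SD, n = 3), and the fitted difference was 5.68 ± 0.42, and 2.49 with normexp. Here replicate 2 and not replicate 1 was the lowest β-CB1R-/- mouse.

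Of 20 keratin and keratin-associated genes, 10 were compared, 8 were too dim and 2 had no matched probe. None passed the threshold in limma, with 7 higher, 3 lower and 1 at an unadjusted p under 0.05, and the median was 0.13. *Krt8* and *Krt18*, the keratins of simple epithelia, had differences of 0.13 ± 0.21 and 0.02 ± 0.25. *Krt19*, a duct keratin, had one of 0.60 ± 0.75, and the largest was 0.92 ± 0.61 for *Krt20*, an intestinal keratin.

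*Lonrf3* encodes a protein with a LON domain and RING fingers, a domain type found in ubiquitin ligases. Its leading probe (A_66_P105422) was at −1.37, −1.0, −0.95 and −0.78 in β-CB1R+/+ and at 1.1, 2.02 and 2.1 in β-CB1R-/- islets. The difference was 2.77 ± 0.29 (SE), from −1.02 ± 0.25 (SD, n = 4) to 1.74 ± 0.56 (SD, n = 3), or 6.81-fold, with every array well above background. The other probe gave 2.69 ± 0.34, within 0.08 of the first, although only 1 of 4 β-CB1R+/+ arrays was well above background on it, and gave 1.23 with normexp. Of 5 LON domain genes, 4 were compared and none passed the threshold, with 2 higher, 2 lower, 0 at an unadjusted p under 0.05 and a median of −0.02. The related *Lonrf1* had the largest difference, −0.19 ± 0.23, and *Lonrf2* was too dim to be compared.

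*Srbd1* encodes a protein with an S1 domain, a fold that binds RNA. It had the smallest difference of the 9 genes. Its leading probe (A_55_P1960331) was at 0.51, 0.69, 0.59 and 0.34 in β-CB1R+/+ islets. In β-CB1R-/- islets it was at 2.28, 2.93 and 3.54. The difference was 2.38 ± 0.30 (SE), from 0.53 ± 0.15 (SD, n = 4) to 2.92 ± 0.63 (SD, n = 3), or 5.22-fold, and the groups did not overlap. The other probe gave 1.61 ± 0.39, did not pass the threshold, and had the same order of β-CB1R-/- mice. Of 9 genes of S1 domain proteins all were compared and none passed the threshold, with 2 higher, 7 lower, 0 at an unadjusted p under 0.05 and a median of −0.13. The largest difference was −0.32 ± 0.31 for *Supt6*, a transcription elongation factor.

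**Figure D2:**
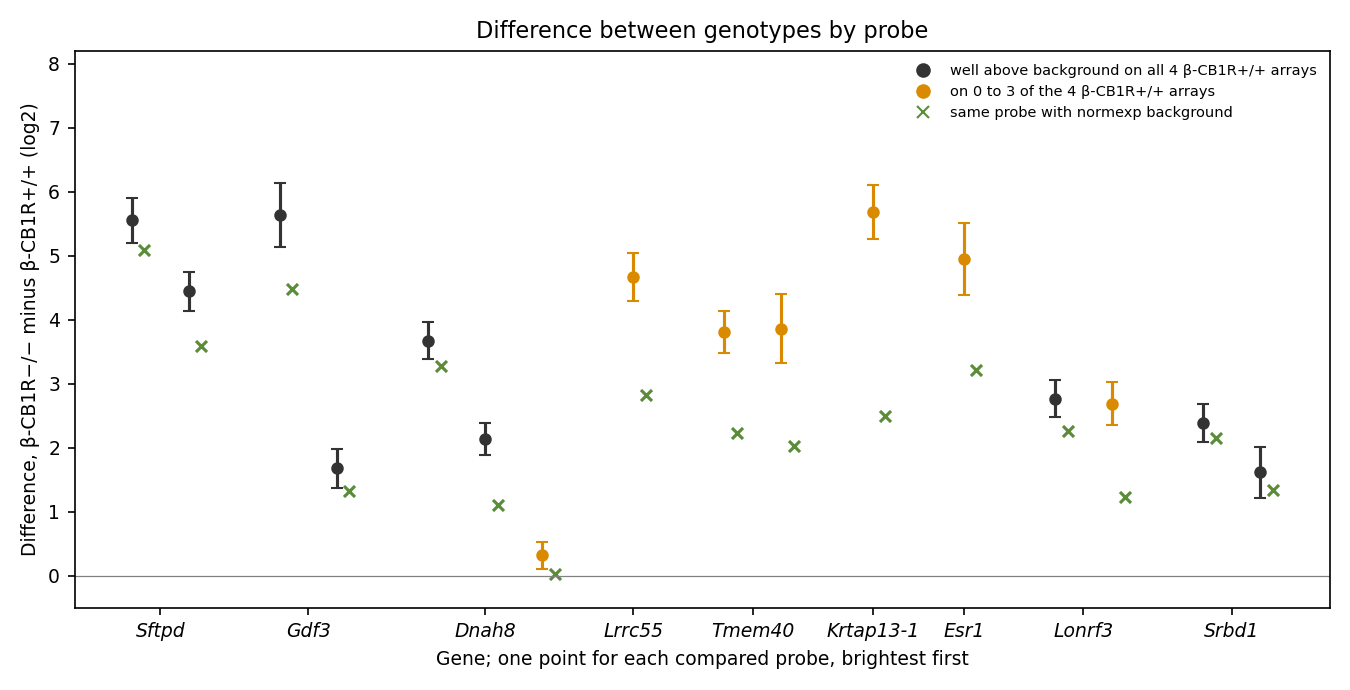
Difference between genotypes (log2, β-CB1R-/- minus β-CB1R+/+) for the 16 compared probes of the 9 genes, with the limma standard error, and the same probe after normexp background correction (green crosses). All differences lie above 0; the probes of Tmem40 and Lonrf3 lie within 0.06 and 0.08 of each other, and within 0.19 and 1.03 with normexp, those of Gdf3 and Dnah8 spread over 3.96 and 3.35, and normexp lowers the orange points, which were not above background on all β-CB1R+/+ arrays, further than the black ones, except for the third probe of Dnah8.

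Agreement between probes could be examined for the 6 genes with more than 1 compared probe. Differences between the probes of a gene spanned 0.06 in *Tmem40*, 0.08 in *Lonrf3*, 0.77 in *Srbd1*, 1.11 in *Sftpd*, 3.35 in *Dnah8* and 3.96 in *Gdf3*. With normexp the span was 0.19 in *Tmem40*, 0.82 in *Srbd1*, 1.03 in *Lonrf3*, 1.5 in *Sftpd*, 3.14 in *Gdf3* and 3.26 in *Dnah8*. Every probe of a gene carried the same transcript accession. Between the repeat arrays of β-CB1R-/- replicate 2, the 16 probes differed by 0.01 to 0.31 with a median of 0.04, beside a median of 0.14 over all compared probes.

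**Figure D3:**
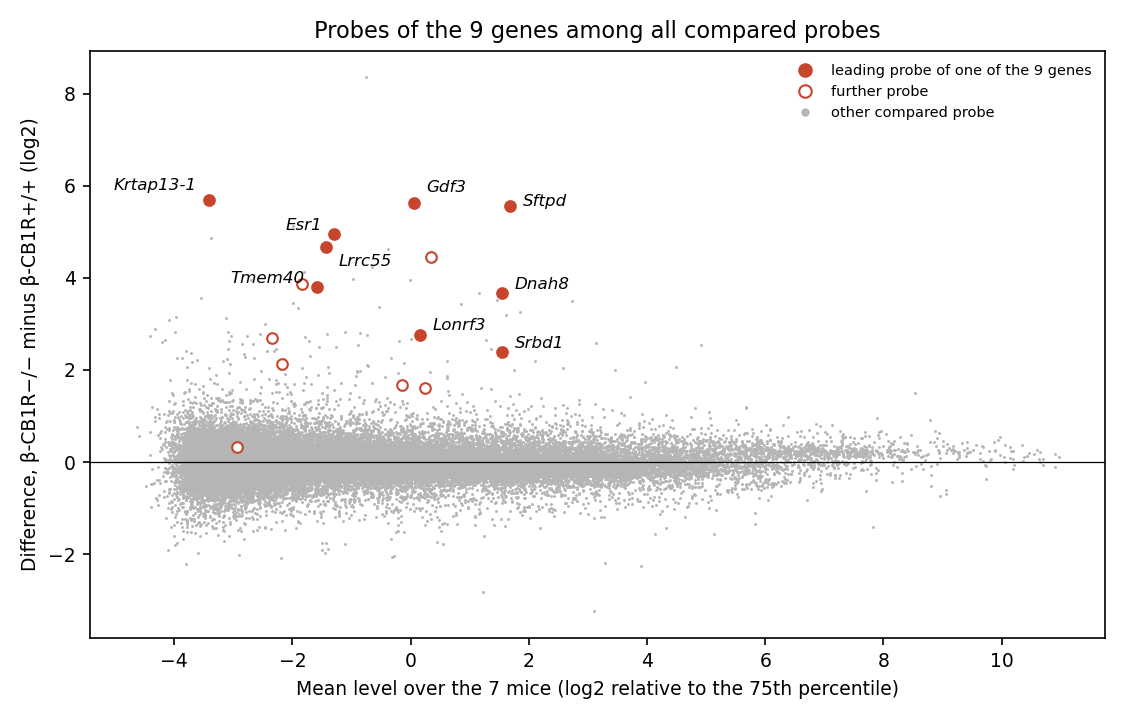
Difference between genotypes (log2) against mean level over the 7 mice for the 39165 compared probes (grey), with the leading probes of the 9 genes in filled red and their further probes in open red. The leading probes of 8 genes lie between 2.38 and 5.63 and that of Krtap13-1, whose β-CB1R+/+ level is at background, is drawn at its fitted 5.68, whereas the median of all probes is −0.02.

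The β-CB1R-/- mice did not have the same level. Replicate 1 was the lowest of the 3 on 14 of the 16 compared probes and on 8 of the 9 leading probes, with *Krtap13-1* as the exception. Over all compared probes, replicate 1 was the lowest β-CB1R-/- mouse for 23.0%. Of the other 30 probes that passed the threshold as higher, it was the lowest on 26. The median level of the 9 leading probes was 1.1 in replicate 1, 2.02 in replicate 2 and 2.40 in replicate 3, against −2.83 to −1.94 in the β-CB1R+/+ mice. The level of *Cnr1* in these 3 mice was −2.30, −3.13 and −2.28.

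Across the 7 mice, the 36 pairs among the 9 leading probes had a Pearson r from 0.929 to 0.996 with a median of 0.978. These values share the difference between the groups that chose the genes, and are given as a description. After each group's mean was subtracted, r ranged from −0.05 to 0.91 with a median of 0.59. The genes outside the 9 that are named below, picked for their likeness to a member, had an r of 0.84 to 0.98 with it on this measure. No value over all pairs of genes was computed, and the β-CB1R+/+ values of *Krtap13-1*, which enters 8 of the pairs, were at background.

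The 2 genes with the most similar pattern to each gene, by Pearson r of the leading probes over the 7 mice, were *Dnah8* (0.996) and *Sntg2* (0.995) for *Sftpd*, and *Tmem40* and *Dnah8* (both 0.994) for *Gdf3*. For *Dnah8*, *Sftpd* (0.996) is given. For *Lrrc55* they were *Ehhadh* (0.994) and *Lonrf3* (0.992), and for *Tmem40* they were *Gpr26* (0.997) and *Galnt9* (0.996). For *Krtap13-1* they were *Matn2* (0.995) and *Wdr86* (0.988), and for *Esr1* they were *Neb* (0.990) and *Krtap13-1* (0.985). For *Lonrf3* they were *Fbxw15* (0.997) and *Gfra3* (0.995), and for *Srbd1* they were *Slc2a13* (0.998) and *Apobec1* (0.993). Of the genes outside the 9, *Fbxw15*, an F-box protein, had a difference of 4.23, whereas that of *Galnt9*, a glycosyltransferase, was 0.99. All values are over the same 7 mice and rest largely on the difference between groups.

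**Figure D4:**
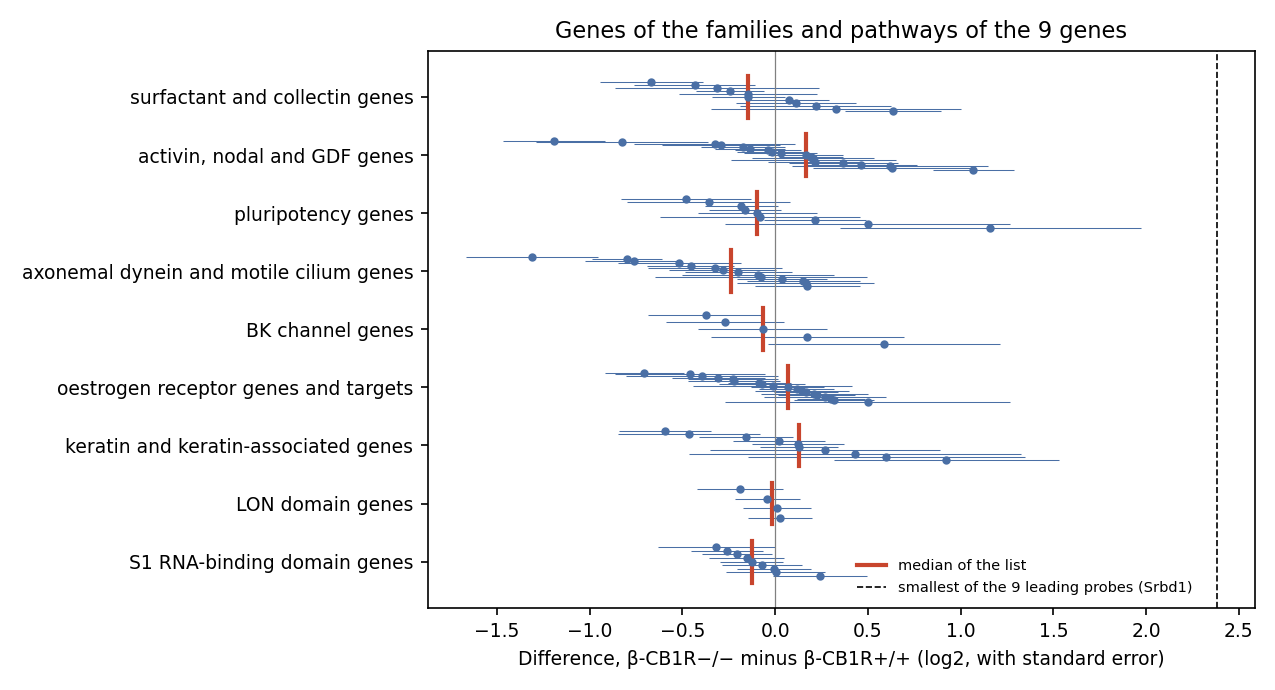
Difference between genotypes (log2, β-CB1R-/- minus β-CB1R+/+, points with standard error) of the 99 compared genes in the 9 lists of related genes, with the median of each list in red. The medians lie between −0.24 and 0.16, and no gene reaches the dashed line at 2.38, the difference of Srbd1.

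Over the 9 lists of related genes together, 99 of 140 genes were compared and none passed the threshold in limma. At an unadjusted p under 0.05 there were 9 genes, beside 3.9% of all compared genes. In all, 45 genes were higher and 54 lower, and the median difference was −0.04, as it was over all compared genes. The groups did not overlap for 8 of the 99 genes, beside 4.83% of the leading probes of all genes in either direction.

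The genes next to the 9 on their chromosomes were examined in the same way, with 5 on each side in RefSeq order. Of these 90 neighbours, 25 were bright enough to be compared, and 1 passed the threshold. *Apobec1*, which lies next to *Gdf3* and encodes the enzyme that edits C to U in apolipoprotein B mRNA, was at 2.23, 1.95, 2.06 and 1.86 in β-CB1R+/+ and at 4.09, 4.48 and 5.25 in β-CB1R-/- islets. All 8 arrays were well above background and the groups did not overlap. *Apobec1* rose by 2.58 ± 0.29 (SE), from 2.02 ± 0.16 (SD, n = 4) to 4.61 ± 0.59 (SD, n = 3), with an adjusted p of 0.030 in limma. The call was kept under 8 of 17 alternatives, and the adjusted p ranged from 0.006 to 0.370. It was lost with the methods' t-test after adjustment, without any single β-CB1R+/+ mouse, without β-CB1R-/- replicate 2 or 3, without the filter on dim probes and with a replicate block, while the difference stayed between 2.26 and 2.84 on leaving out each mouse.

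On the other side of *Gdf3*, *Dppa3*, an oocyte and germ cell gene, had a difference of −0.08 ± 0.54. Near *Lonrf3*, *Zcchc12*, a zinc finger protein gene, was at 1.27 to 1.65 in β-CB1R+/+ and at 2.06 to 2.90 in β-CB1R-/- islets, a difference of 0.97 ± 0.24 (adjusted p = 0.832). *Il13ra1*, a receptor subunit for interleukin 13 in the same neighbourhood, had a difference of 0.55 ± 0.20 (adjusted p = 0.999). Neither passed the threshold, although the groups did not overlap in either. Of the 10 neighbours of *Krtap13-1*, which include other keratin-associated protein genes, 1 could be compared. The largest difference was −0.53 ± 0.29 next to *Esr1*, for *Syne1*, and 0.41 ± 0.38 near *Tmem40*, for *Rpl32*. Over all 25 compared neighbours, 13 were higher and 12 lower, with a median of 0.05. At an unadjusted p under 0.05 there were 3, beside 3.9% of all compared genes, and in 3 the groups did not overlap, beside 4.83%.

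**Figure D5:**
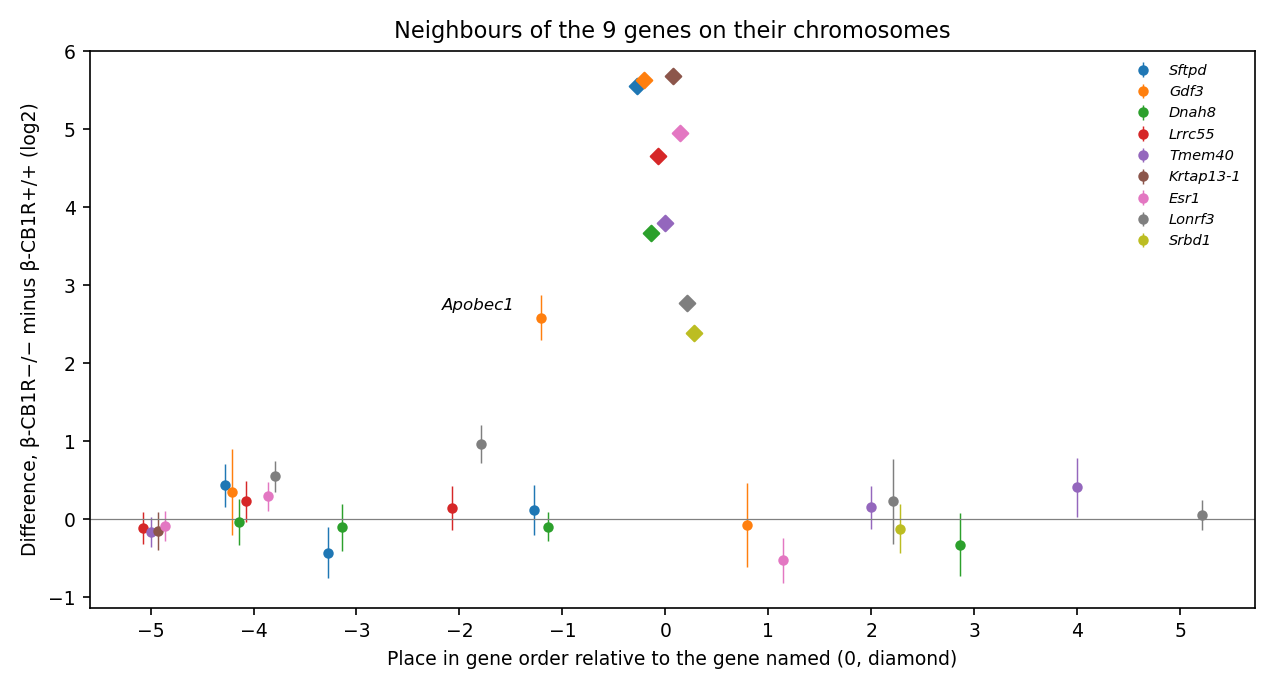
Difference between genotypes (log2, with standard error) of the 25 compared neighbours by their place in gene order, with the 9 genes themselves as diamonds at place 0. Apobec1, next to Gdf3, lies at 2.58, and the other 24 lie between −0.53 and 0.97.

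Markers of cell types in which these genes are best known, and of other cells that islet preparations can hold, were read as summed intensity in multiples of the 75th percentile. No marker on any list passed the threshold in limma. Markers of alveolar type II cells, the lung cells that secrete surfactant, were lower in 4 of 4 compared genes, and *Slc34a2* was not above background. Their sums were 6.68 to 8.64 in β-CB1R+/+ and 5.81 to 6.78 in β-CB1R-/- mice. *Lamp3*, at mean levels of 2.82 and 2.57, made up most of these sums. *Sftpa1*, *Sftpb* and *Sftpc* had mean levels of −3.64 to −2.88. Each was well above background on only 2 of the 4 β-CB1R-/- arrays, so that their lower values lie partly at background. Of ciliated cell markers, 1 of 3 was higher, with sums of 1.24 to 1.45 and 1.11 to 1.75. Of squamous epithelium markers, 2 of 6 were higher, with sums of 29.8 to 48.1 and 24.7 to 39.2 and *Krt14* too dim to be compared. Of male germ cell markers, 2 of 3 were higher, with sums of 0.397 to 0.612 and 0.320 to 0.661, and *Ddx4*, *Dazl*, *Acrv1* and *Sycp3* were not above background.

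For stellate cells and fibroblasts, all 7 markers had higher means in β-CB1R-/- islets. Their median difference was 1.01, and the sums were 8.27, 4.78, 8.42 and 60.9 in β-CB1R+/+ and 21.1, 28.2 and 16.8 in β-CB1R-/- mice. The groups overlapped through β-CB1R+/+ replicate 4 alone, which stood apart at 60.9, and the other 3 β-CB1R+/+ mice lay below every β-CB1R-/- mouse. Without replicate 4, the median difference of the 9 leading probes was 4.65, and 4.66 with it. The stellate sums of the groups then do not overlap, so that these medians cannot tell the part of these cells from that of genotype. All 6 macrophage markers were higher, with a median of 0.40 and sums of 10.5 to 14.9 and 12.5 to 18.9. Acinar markers were higher in 7 of 8, with sums of 8064 to 14032 and 7665 to 15389, and duct markers in 4 of 7, with sums of 11.7 to 16.4 and 11.4 to 16.4. The sums of the groups overlapped in the macrophage, acinar and duct lists. Islet cell markers were mostly lower. Alpha cell markers were lower in 4 of 5, with a median of −0.59, 2 at an unadjusted p under 0.05, and sums of 964 to 1288 in β-CB1R+/+ and 770 to 928 in β-CB1R-/- mice, which did not overlap. Delta cell markers were lower in 3 of 3, with a median of −0.51, and beta cell markers in 7 of 8, with a median of −0.13, and the sums of the groups overlapped in both. Schwann cell markers were higher in 3 of 3, with a median of 0.39 and sums of 18.0 to 31.4 in β-CB1R+/+ and 21.6 to 25.8 in β-CB1R-/- mice. Adipocyte markers were higher in 2 of 3, with a median of 0.32 and sums of 2.24 to 9.72 and 4.89 to 9.10. T cell markers were higher in 3 of 4, with a median of 0.26 and sums of 9.32 to 13.1 and 9.58 to 10.1. Endothelial markers were higher in 2 of 6, with a median of −0.06 and sums of 29.0 to 36.8 and 30.4 to 31.5. The PP cell marker *Ppy* had a difference of 0.54 ± 0.61, and levels of 85.2 to 491 and 178 to 304. The sums of the groups overlapped in these 5 lists, no gene of which passed the threshold, and the 3 B cell markers were too dim to be compared. The part of these cell types in the difference of the 9 genes was not tested.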

How the data were processed

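Islet RNA of 4 β-CB1R+/+ and 3 β-CB1R-/- mice was measured on 8 Agilent 1-colour arrays. The authors deposited spot intensities from Feature Extraction 11.5.1.1 (background-subtracted and detrended, not scaled between arrays) and a Z score per spot, which was used as an alternative. The number of mice limits the precision, and p-values measure the spread between these mice. Non-control spots without outlier flags were put on the log2 scale relative to the array's 75th percentile, and spots of a probe and repeat arrays were averaged. Of 55681 probes, 28026 were named through the RefSeq table of GRCm38.p6, used for names, gene order and promoter windows only. The 39165 probes that were well above background in 3 or more of the 7 mice entered a two-sided limma 3.58.1 fit (R 4.3.3), and p-values were adjusted over all of them by Benjamini-Hochberg. Levels, differences and related-gene counts used the probe with the highest mean; the fold in an arm with no array above background is a lower bound. Normexp used median intensities with an offset of 50.

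The 9 genes and the lists of related genes and markers were chosen with earlier results of these data known. Named are all probes of the 9 genes, of each list and of the neighbours the genes past the threshold, the largest difference and preset core genes, and for each of the 9 the 2 genes most similar over mice; 1 gene that this rule names is not reported here. *Il13ra1*, *Zcchc12*, *Dppa3*, *Rpl32*, *Syne1*, *Dnah11* and dim markers were named after their values were seen. The fit was checked on simulated arrays of the same size (39165 probes, 4 against 3 mice): it found 10% of genes set to a log2 change of 1, 58% at 2, 84% at 3 and 82% at 4, with 7 false calls. Alternatives were normexp, quantile normalisation, the deposited Z scores, other filters on dim probes, either repeat array alone, a replicate block, an intensity trend, the methods' t-test and leaving out each mouse; the t-test on related and neighbouring genes and the alternatives for *Apobec1* were added after seeing the data.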

Additional observations from a re-analysis of the deposited data

Results flagged for a closer look

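Of 26 sets of 4 β-CB1R+/+ values, 2 held a mouse far from the others by Dixon's criterion, where chance flags about 1 in 20 (1.3 of 26). On the second probe of *Tmem40*, β-CB1R+/+ replicate 1 was at −4.82 and the others at −3.11 to −3.01. On the probe of *Esr1* that was above background on no array, the same mouse was at −4.99 and the others at −5.90 to −5.79.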

How the results depend on the processing

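All 16 compared probes of the 9 genes stayed higher in β-CB1R-/- islets under every alternative that held them. The median difference of the 9 leading probes, 4.66, was 2.82 with normexp, 3.67 over the 5 leading probes above background on all 8 arrays and 4.40 to 4.99 on leaving out each mouse. With the filter on all 8 arrays 9 of the 16 probes remained, in 5 genes, all higher. Of the 9 leading probes, 0 to 8 passed the threshold on leaving out each mouse: 7, 6, 2 and 6 without β-CB1R+/+ replicates 1 to 4, and 8, 0 and 2 without β-CB1R-/- replicates 1 to 3. It was passed by 7 without the filter on dim probes and by 0 with the replicate block.

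Calls were less stable. The threshold was passed by 43 probes in the analysis reported, by 23 without the filter on dim probes, 24 with the filter on all 8 arrays, 0 with the methods' t-test after adjustment (1412 unadjusted, 1406 in limma) and 0 to 42 on leaving out each mouse. It was 22, 15, 5 and 19 without β-CB1R+/+ replicates 1 to 4, and 42, 0 and 5 without β-CB1R-/- replicates 1 to 3; without β-CB1R-/- replicate 2 there were 785 probes at an unadjusted p under 0.05. Why single mice move this count was not tested. The number of neighbours past the threshold was 1 (*Apobec1*), 0 without the filter on dim probes, 0 with the adjusted t-test and 0 to 1 on leaving out each mouse, where it was 1 only without β-CB1R-/- replicate 1. The number of related genes past it was 0 under each alternative run, the adjusted t-test included (8 of 99 unadjusted, and 9 in limma).

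The groups share replicate numbers 1 to 3, and same-numbered mice deviated together for number 1 (r of 0.42) but not for 2 and 3 (−0.27 and −0.06), with best matches of 1, 4 and 2, so the numbers were not taken to pair the mice. With the replicate block, 0 probes passed the threshold (1714 unadjusted), 0 neighbours did, and the median difference of the 9 genes was 4.65. The block left few degrees of freedom, and β-CB1R+/+ replicate 4, which has no partner of its number, did not enter the differences of that fit. No slide or scan block was run, since all arrays shared 1 of each. Normexp, which also changed the intensities used and added an offset, moved 10 of the 16 probes by more than the spread between replicates, 3 of them well above background on all 8 arrays; the cause was not tested.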
